A study of Mus musculus with 24 samples.

Results

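The 10 genes described here were dim or below background in the mouse mammary gland at day 18 of pregnancy and brighter in the virgin gland: Dmbt1, Ido1, Ptn, Abcc8, Crym, Fam25c, Pon1, R3hdml, Sprr1a and Acsm3. They were chosen by name for a large fall between these stages, so the fall itself is a description and carries no test. The array holds 15 probes for the 10 genes, and all 10 were among the 22389 genes tested. The array carries 36610 gene names in all.

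RNA of the inguinal mammary gland of C57BL/6 females, with the lymph node taken out, was hybridised to 1-colour 60-base oligonucleotide arrays. The study set mice homozygous for the R96C knock-in allele of Socs2 (KI), which encodes suppressor of cytokine signalling 2, against homozygous wild-type mice (WT), to follow mammary development and function. There were 5 KI mice at pregnancy day 18, 5 WT mice at pregnancy day 18, 7 KI virgins and 7 WT virgins, and the virgins were 8 weeks old. All groups share the C57BL/6 background, and no treatment is labelled for any of them. Each array is 1 mouse, named here by its number in the labels, and no mouse is in both stages. The age of the pregnant mice is not stated in the sample labels.

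The virgin gland is a branching epithelial tree in a fat pad, with luminal cells, some of which carry receptors for oestrogen and progesterone, over a basal layer. By late pregnancy secretory alveoli fill the fat pad, so RNA of whole tissue moves with the mix of cells as well as with each cell's output. In such bulk samples, fewer cells of a type and less RNA per cell cannot be told apart. The 10 genes do not form 1 pathway. Their products include a mucosal defence glycoprotein, a growth factor, a tryptophan-degrading enzyme, a channel subunit, a thyroid hormone binder and a cornified envelope protein.

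Values are log2 of the processed signal minus the array's 75th percentile, so 0 is the brightness of the array's 75th percentile. A value is called below background where the scanner software did not mark the spot as well above background. Marker lists of the tissue moved in both directions between stages. The median score of 10 general luminal markers was 3.47 in KI mice at day 18, 3.71 in WT mice at day 18, 1.79 in KI virgins and 2.49 in WT virgins. Of those 10 markers, 4 were higher and 0 lower at day 18 in WT mice, and 6 were higher and 0 lower in KI mice (limma, adjusted p under 0.05). White adipocyte markers were lower for 4 of 7 genes in each genotype, and 7 of 9 tested hormone-sensing luminal markers, Esr1 and Pgr among them, were lower in each genotype. Fibroblast markers were lower for 5 of 6 genes in KI and 6 of 6 in WT, and macrophage markers for 3 of 5 in each. Luminal progenitor and alveolar markers were higher for 7 of 8 in each, and basal markers for 8 of 8 in KI and 5 of 8 in WT. The part of these shifts in the members' falls was not tested.

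Several arrays stood apart before any member was read. The array of KI virgin 376 had a net signal of 331.5 on negative control probes, against 19.4 to 41.4 on the other arrays, and had 57003 of 59305 spots well above background, against 33374 to 43055. The gland of KI virgin 198 had a luminal score of -3.22, the lowest of all, and the highest skeletal muscle score, 7.95. The gland of WT virgin 317 had the lowest luminal score of its group, 0.66. Among day 18 arrays, KI mouse 184 had the most spots well above background, 43055, and KI mouse 239 the lowest white adipocyte score, 3.40.

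Sequences are given for the probes behind 3 of the falls and for 2 promoters. Ptn is shown because it was measured at both stages, and Fam25c and R3hdml because KI mouse 184 was their only gland above background at day 18. The probes are printed as the array files hold them, on mm9. The Ptn probe lies at chr6:36691376-36691435 on the minus strand, the R3hdml probe at chr2:163328131-163328190 on the plus strand, and the Fam25c probe at chr14:35165215-35166894 on the minus strand, where its 60 bases span 1680 bases of genome.
Ptn probe: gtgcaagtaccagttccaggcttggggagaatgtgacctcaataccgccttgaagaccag
R3hdml probe: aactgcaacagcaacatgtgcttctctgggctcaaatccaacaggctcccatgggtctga
Fam25c probe: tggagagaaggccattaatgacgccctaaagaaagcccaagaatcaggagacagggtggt

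RefSeq promoters (build GRCm38.p6, 250 bases before to 50 after the gene start) were at hand for 6 of the 10 members: Ptn, Fam25c, Pon1, R3hdml, Sprr1a and Acsm3. Fam25c (chr14:34355344-34355643, minus strand) and Sprr1a (chr3:92485832-92486131, minus strand) were the members, of those 6, whose windows held both TATAAA and TGANTCA on either strand, and they are shown with these matches in capitals. In Fam25c the matches start at -105 (TGANTCA) and -29 (TATAAA) from the gene start, and in Sprr1a at -146 and -116 (TGANTCA) and -43 (TATAAA). The matches do not overlap each other.
Fam25c promoter: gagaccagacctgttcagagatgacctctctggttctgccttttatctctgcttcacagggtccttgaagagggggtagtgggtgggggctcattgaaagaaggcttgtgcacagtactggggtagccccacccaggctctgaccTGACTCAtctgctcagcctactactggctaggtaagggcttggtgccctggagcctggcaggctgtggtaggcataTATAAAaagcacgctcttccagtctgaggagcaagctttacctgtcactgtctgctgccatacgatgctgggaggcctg
Sprr1a promoter: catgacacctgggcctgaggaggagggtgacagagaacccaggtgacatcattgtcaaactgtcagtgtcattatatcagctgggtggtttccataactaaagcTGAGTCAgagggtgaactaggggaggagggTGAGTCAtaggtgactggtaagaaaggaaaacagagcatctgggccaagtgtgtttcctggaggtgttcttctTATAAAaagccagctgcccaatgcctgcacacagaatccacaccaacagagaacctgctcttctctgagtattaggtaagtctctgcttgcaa
Over all 32851 promoters of the table, 13.6% held TATAAA and 7.81% held TGANTCA. TTCNNNGAA, the core of STAT sites, was in 0 of the 6 member windows and 8.3% of all. AGGTCA was in 1 of 6 (Fam25c) and 16.3% of all, and TGTTCT in 2 of 6 (Ptn and Sprr1a) and 19%. These are matches of letters in a 300-base window, which show nothing about binding.

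Dmbt1 encodes a secreted scavenger receptor glycoprotein of mucosal surfaces that binds microbes. It was below background on all 10 day 18 arrays, at -7.24, -7.03, -6.84, -6.40 and -5.60 in KI mice and at -7.49, -6.80, -6.78, -6.71 and -6.65 in WT mice. In KI virgins its lowest, median and highest values were -1.29, 5.19 and 6.17, and in WT virgins 1.52, 6.80 and 7.43. All 14 virgin glands lay above every day 18 gland, and the lowest virgins were mouse 198 (KI) and mouse 317 (WT). The difference, day 18 minus virgin, was -10.76 in KI and -12.76 in WT on the log2 scale. Because day 18 was below background, only a bound on the fold applies: at least 380.1-fold lower at day 18 in KI and at least 1545-fold lower in WT. Without mouse 198 the KI difference was -11.66, and without mouse 317 the WT difference was -13.49.

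Ido1 encodes indoleamine 2,3-dioxygenase 1, which opens the tryptophan ring as the first step toward kynurenine and is induced by interferon gamma. At day 18 KI mice had values of -6.49, -6.44, -6.29, -5.96 and -3.67, all below background, and WT mice had -6.89, -5.74, -5.63, -5.35 and -4.16, with 1 of 5 well above background (mouse 206). In KI virgins the lowest, median and highest were -2.58, 2.56 and 3.14, and in WT virgins -1.99, 4.27 and 5.18. The groups did not overlap in either genotype, and mice 198 and 317 were again the lowest of their groups. The difference was -7.55 in KI, at least 74.6-fold lower, and -8.93 in WT, at least 262.1-fold lower. Without mouse 198 it was -8.28 in KI, and without mouse 317 it was -9.82 in WT.

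Ptn encodes pleiotrophin, a secreted heparin-binding growth factor. Unlike Dmbt1 and Ido1 it stayed well above background on all 10 day 18 arrays, so its fold is a measured one. Values at day 18 were -2.88, -2.48, -2.35, -2.33 and -1.81 in KI mice and -2.50, -2.26, -2.12, -1.63 and -0.86 in WT mice. The lowest, median and highest were 0.48, 3.26 and 4.89 in KI virgins, and 2.79, 4.28 and 4.72 in WT virgins. Day 18 values lay below all virgin values in each genotype. The fall was 43.0-fold in KI (log2 -5.43) and 55.7-fold in WT (log2 -5.80). Another Ptn probe gave -5.89 in KI and -6.44 in WT.

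**Figure D1:**
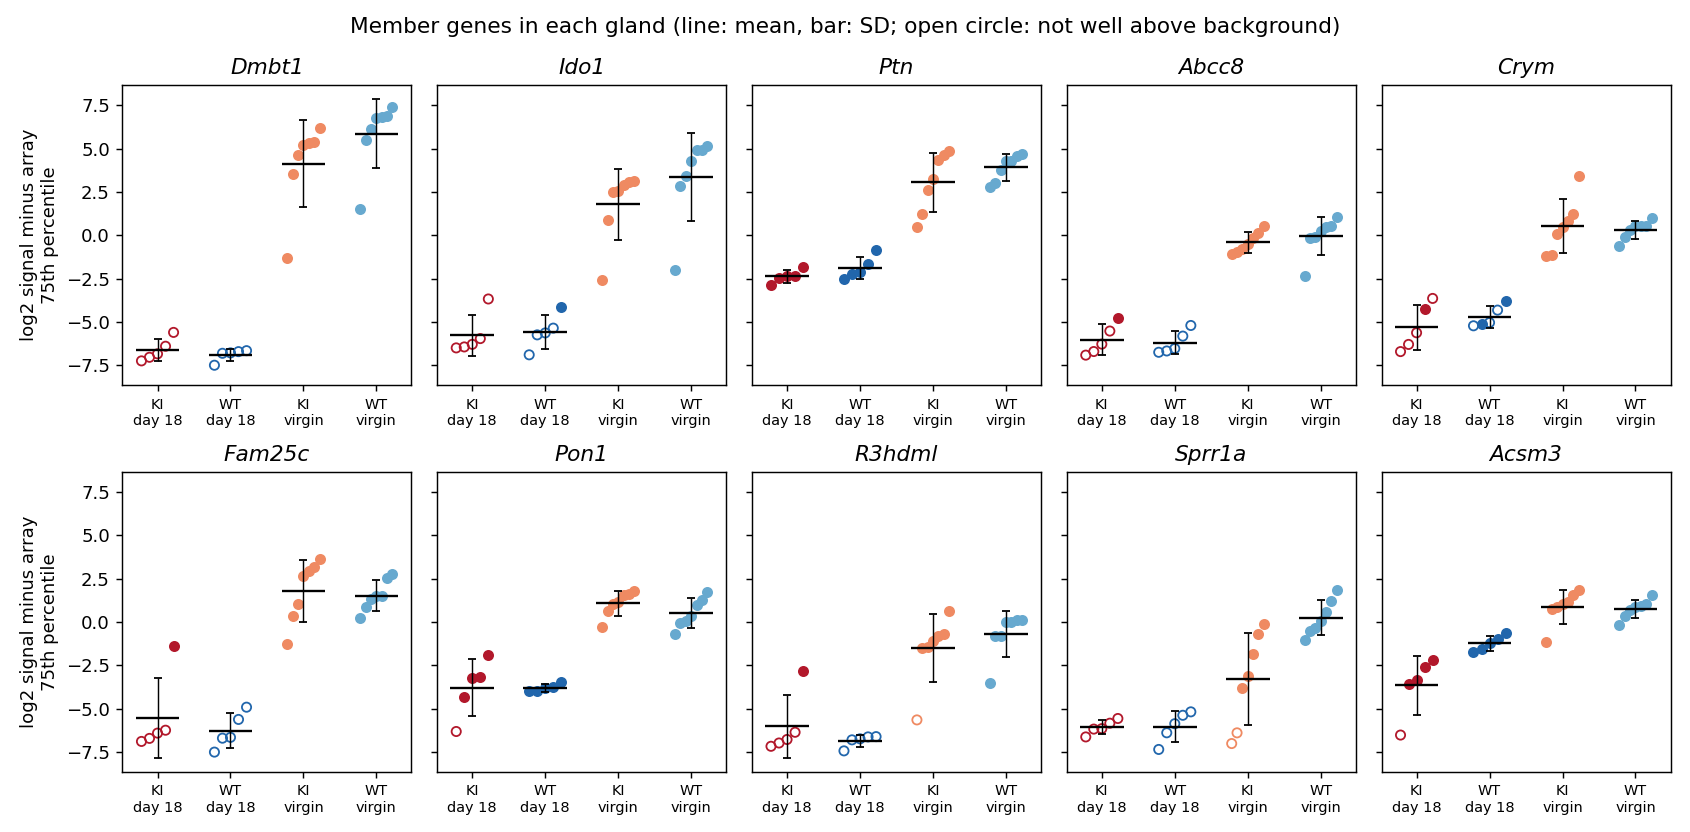
Log2 signal minus the array's 75th percentile (y axis) for the 10 members in every gland, 1 panel per gene, with KI and WT day 18 glands left of KI and WT virgins; lines are means, bars SD, and open circles values not well above background. Dmbt1, Ido1, Abcc8, Crym, Fam25c, R3hdml and Sprr1a are mostly open circles at day 18, and Ptn is filled throughout. No overlap between stages is seen for 8 of the 10 genes in KI mice and 10 of 10 in WT mice. Over all genes, 6.08% in KI and 17.3% in WT had every day 18 value below every virgin value.

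Pon1 encodes paraoxonase 1, a lactonase carried on high-density lipoprotein. It was -6.31 (below background, mouse 239), -4.32, -3.24, -3.16 and -1.90 in KI mice at day 18 and -4.0, -3.99, -3.79, -3.74 and -3.43 in WT mice at day 18. In KI virgins it ran between -0.26 and 1.81 with a median of 1.14, and in WT virgins between -0.67 and 1.73 with a median of 0.34. Stages did not overlap. The fall was 29.1-fold in KI (log2 -4.87) and 19.9-fold in WT (log2 -4.32). The KI value includes mouse 239, which was below background, and without that mouse the KI fall was 18.8-fold (log2 -4.23). The other Pon1 probe failed the filter on dim probes and gave -1.79 in KI and -1.44 in WT.

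Abcc8 encodes the sulphonylurea receptor subunit of the ATP-sensitive potassium channel. Day 18 values were -6.91, -6.70, -6.27, -5.52 and -4.75 in KI mice, with 1 of 5 well above background, and -6.75, -6.67, -6.53, -5.81 and -5.20 in WT mice, with 0 of 5. In KI virgins the lowest, median and highest were -1.07, -0.49 and 0.54, and in WT virgins -2.33, 0.27 and 1.09, with mouse 317 the lowest. There was no overlap between stages. The difference was -5.63 in KI, at least 15.7-fold lower, and -6.16 in WT, at least 25.3-fold lower. A further probe at nearly the same place was well above background on 1 of 24 arrays and gave no reading of the change.

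Crym encodes mu-crystallin, a thyroid hormone-binding protein with ketimine reductase activity. At day 18 it was -6.71, -6.29, -5.62, -4.27 and -3.64 in KI mice, with 1 of 5 well above background, and -5.22, -5.14, -5.04, -4.31 and -3.81 in WT mice, with 2 of 5. In KI virgins the lowest, median and highest were -1.18, 0.50 and 3.43, the last in mouse 196, and in WT virgins -0.59, 0.52 and 1.03. Day 18 stayed below the virgins throughout. The difference was -5.84 in KI, at least 27.9-fold lower, and -5.04 in WT, at least 28.3-fold lower.

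Fam25c, for which no function is given here, was -6.88, -6.71, -6.40, -6.24 and -1.40 in KI mice at day 18, where mouse 184 (-1.40) was the one array well above background, and -7.50, -6.70, -6.65, -5.62 and -4.91 in WT mice, all below it. The lowest, median and highest were -1.27, 2.64 and 3.64 in KI virgins, and 0.24, 1.5 and 2.77 in WT virgins. In KI, day 18 mouse 184 came close to virgin mouse 198 (-1.27) without crossing it. The difference was -7.31 in KI, at least 56.3-fold lower, and -7.81 in WT, at least 76.2-fold lower. Without mouse 184 the KI difference was -8.34.

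R3hdml belongs to the CAP family of secreted proteins. It was -7.16, -6.97, -6.77, -6.36 and -2.80 in KI mice at day 18, with mouse 184 (-2.80) the one array well above background, and -7.43, -6.79, -6.73, -6.62 and -6.61 in WT mice. In KI virgins the lowest, median and highest were -5.64 (mouse 198, below background), -1.10 and 0.64, and in WT virgins -3.52, -0.01 and 0.14. In KI the groups overlapped, because day 18 mouse 184 was above virgin mouse 198, while in WT they did not. The difference was -4.51 in KI, at least 7.03-fold lower, and -6.14 in WT, at least 16.3-fold lower. In KI it was -5.32 without mouse 184 and -5.20 without mouse 198. The other R3hdml probe failed the filter on dim probes and gave -0.47 and -1.40.

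Sprr1a encodes a small proline-rich precursor of the cornified envelope of squamous epithelium. Day 18 was below background on all 10 arrays, at -6.62, -6.17, -6.15, -5.83 and -5.56 in KI mice and -7.35, -6.39, -5.86, -5.38 and -5.18 in WT mice. In KI virgins the values spread over -7.01, -6.39, -3.79, -3.09, -1.82, -0.71 and -0.09, with mice 198 and 314 below background. The -0.71 came from mouse 376, on whose array 57003 of 59305 spots were called well above background, so that call carries little weight. The 7 WT virgins lay between -1.05 and 1.86 with a median of 0.07. The stages overlapped in KI and not in WT. The difference was -2.80 in KI, at least 2.24-fold lower, and -6.30 in WT, at least 31.6-fold lower. Without mouse 198 the KI difference was -3.42.

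Acsm3 encodes a medium-chain acyl-CoA synthetase of mitochondria. It was -6.52 (below background, mouse 239), -3.58, -3.35, -2.58 and -2.21 in KI mice at day 18 and -1.74, -1.56, -1.18, -0.98 and -0.64 in WT mice at day 18. In KI virgins the lowest, median and highest were -1.16, 1.07 and 1.88, and in WT virgins -0.18, 0.86 and 1.54. Stages did not overlap. The fall was 23.1-fold in KI (log2 -4.53) and 3.93-fold in WT (log2 -1.98). The KI value includes mouse 239, which was below background, and without that mouse the KI difference was -3.81 on the log2 scale. Its other probe failed the filter and gave -1.49 in KI and -0.68 in WT.

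Over all genes tested, 42.2% were called between stages in KI and 40.8% in WT, and 18.5% of all genes in KI and 19.3% in WT were called lower at day 18; 6.08% in KI and 17.3% in WT had every day 18 value below every virgin value. The 10 members had a median difference of -5.53 in KI and -6.15 in WT, against 0.12 and 0.07 over all genes. These values were the basis of the choice. Without mice 376, 198 and 184 the KI differences were -12.22 for Dmbt1, -6.45 for Ptn, -5.98 for R3hdml, -9.10 for Fam25c and -3.16 for Sprr1a. The smallest fall among the members was that of Sprr1a in KI, -2.80, beside Plat at -2.79 just outside, and that of Acsm3 in WT, -1.98, beside B930025P03Rik at -1.98; 245 genes in KI and 1114 in WT that are not members fell as far or further. Normexp background correction with an offset of 50 compresses dim values by construction, and the falls were smaller with it: Dmbt1 -6.55 in KI and -8.32 in WT, and Sprr1a -0.68 in KI and -2.69 in WT.

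Genotype was compared within each stage. No member was called, and 0 of the 22389 genes were called at either stage (limma with Benjamini-Hochberg adjustment; percent called 0), while 441 genes at day 18 and 799 in virgins had an unadjusted p under 0.05. The difference between genotypes of the stage change was called for 0 genes too, with 217 at an unadjusted p under 0.05. Two-sided exact permutation tests were run for the 10 members at both stages, 20 in all, and p lay between 0.167 and 1.00 in 18 of them. At day 18, Dmbt1 and Sprr1a were below background on all 10 arrays, and Ido1, Abcc8, Fam25c and R3hdml on all but 1. Their day 18 tests compare values near the floor and cannot show whether the genotypes differ. The same dim values enter their genotype difference of the stage change. With intervals such as -3.59 to 0.10 for Dmbt1 in virgins, the data allow large differences as well as none. In virgins, Dmbt1 differed by -1.74, Ido1 by -1.59 and Ptn by -0.87 (KI minus WT, log2; adjusted p = 0.695 for each by limma). All 10 members overlapped between genotypes in virgins, where 0.0179% of genes did not.

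Sprr1a and Acsm3 had the largest genotype differences among the members. Sprr1a differed by -3.54 ± 0.81 between KI and WT virgins (SE; 95% interval -5.20 to -1.87; adjusted p = 0.695 by limma; exact permutation p = 0.00524 of 3432 splits), and the groups overlapped. Within the 3 slides the difference was -2.48, -4.65 and -3.15, and it was -3.30 without mice 376, 198 and 184. Acsm3 differed by -2.43 ± 0.59 between KI and WT mice at day 18 (SE, 95% interval -3.65 to -1.21, adjusted p = 1.00 by limma, exact permutation p = 0.00794, the smallest that 252 splits allow). No KI value reached a WT value, and 1.26% of all genes had no overlap in either direction. Within slides the Acsm3 difference was -3.96, -1.52 and -1.39, and without mouse 239 it was -1.71. The white adipocyte score was between 3.40 and 4.80 in the KI and 4.48 and 5.00 in the WT mice at day 18, with mouse 239 lowest in both Acsm3 and the score; its part in the difference was not tested. The measured fall of Sprr1a was larger in WT and that of Acsm3 larger in KI, so the choice by size of fall favours such a difference and the exact p, 1 of 20 computed, is not independent of the choice.

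**Figure D2:**
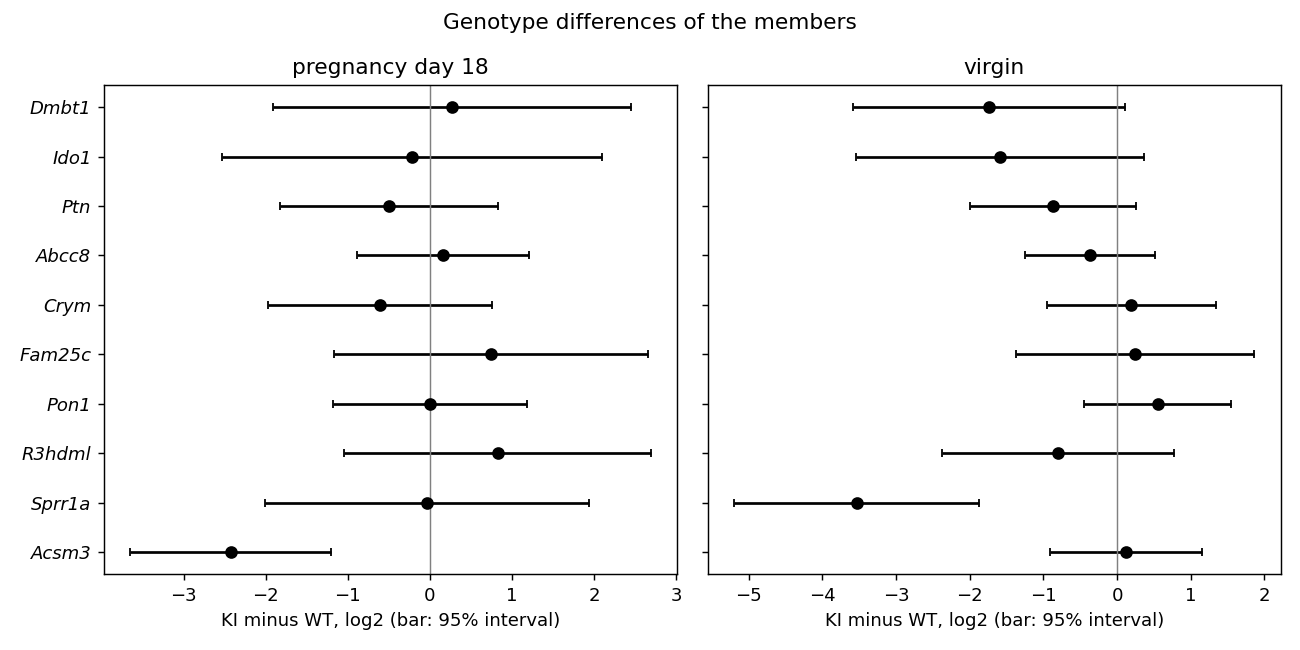
Difference KI minus WT on the log2 scale (x axis) for each member, at pregnancy day 18 in the left panel and in virgins in the right panel; points are the limma estimate and bars the 95% interval. The interval excludes 0 for Acsm3 at day 18 and for Sprr1a in virgins, and includes 0 for the other 18 values. None passed the adjusted threshold. At day 18, Dmbt1, Ido1, Abcc8, Crym, Fam25c, R3hdml and Sprr1a were mostly below background, so their points there compare values near the floor.

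Among single virgin glands the members varied widely: the range over the 14 glands was 8.87 for Sprr1a, 8.71 for Dmbt1, 7.76 for Ido1, 6.29 for R3hdml, 4.91 for Fam25c, 4.6 for Crym, 4.41 for Ptn, 3.42 for Abcc8, 3.04 for Acsm3 and 2.47 for Pon1 on the log2 scale. Mouse 198 held the lowest value for 6 of the 10 members, and mice 198, 376 and 317 were among the lowest 3 glands for 7, 6 and 6 members. These ranks are of scaled values, and the array of mouse 376 had the high negative control signal. Before scaling, its processed signal was the highest of the KI virgins for Dmbt1 (33681), Ido1 (5406), Abcc8, Fam25c, Pon1, R3hdml and Sprr1a. It was not the highest for Ptn, Crym and Acsm3. Of 45 pairs of members, 4 passed the adjusted permutation p by Pearson's r and 0 by Spearman's rho. The share among pairs of other genes was not computed. With values centred within each slide, an alternative added after seeing the data, 0 of 45 passed (the 3 slides hold 5, 4 and 5 virgins, too few for values of their own). Dmbt1 and Ido1 had the highest r (r = 0.91, permutation adjusted p = 0.0045; rho = 0.70, permutation adjusted p = 0.142), and r was 0.64 without mice 198 and 317. The other 3 pairs were Dmbt1 with R3hdml (r = 0.86, 0.16 without the 2 glands farthest out in Dmbt1), Ido1 with R3hdml (r = 0.86, 0.37 without) and Ido1 with Abcc8 (r = 0.73, 0.55 without). The first of these rests on those glands, and for the others permutation p without them was 0.241 and 0.0655.

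**Figure D3:**
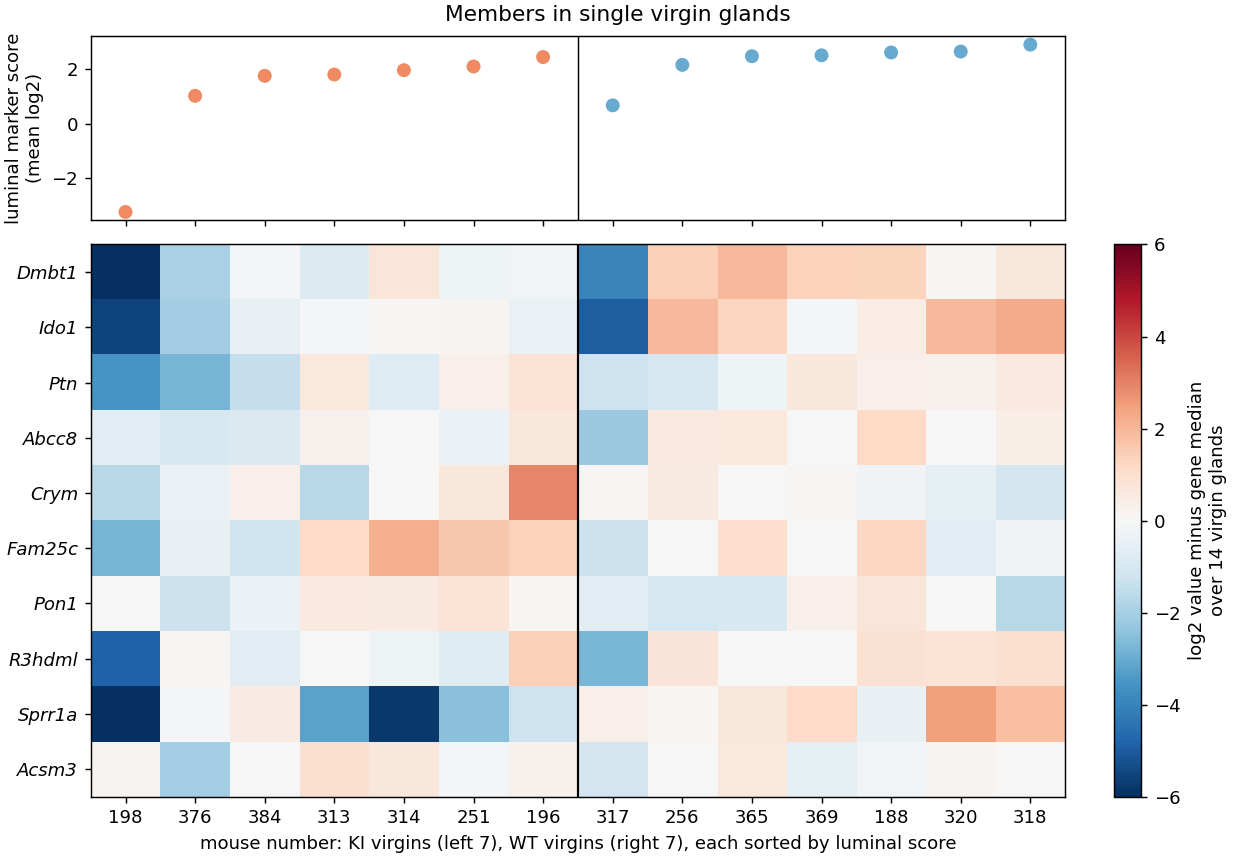
Upper panel: luminal marker score (mean log2 of 10 markers) of each virgin gland; lower panel: each member's log2 value minus its median over the 14 virgins, in colour, with KI glands left of WT glands and each genotype sorted by the score. Mice 198 and 317, the lowest in score, are blue for Dmbt1, Ido1 and R3hdml, and Pon1 and Acsm3 are near their medians in mouse 198.

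Each member was then set beside marker scores of the same glands, in 30 relations chosen after the values had been seen. With the luminal score, r was 0.92 for Dmbt1 (permutation adjusted p = 0.0009), 0.85 for Ido1 (permutation adjusted p = 0.0006), 0.82 for Ptn (permutation adjusted p = 0.0021), 0.91 for R3hdml (permutation adjusted p = 0.0021) and 0.68 for Fam25c (permutation adjusted p = 0.0304), with rho of 0.71, 0.84, 0.66, 0.75 and 0.34. Without mice 198 and 317, r was 0.71, 0.76, 0.79, 0.51 and 0.11 in the same order (permutation p = 0.00984, 0.00445, 0.00345, 0.0840 and 0.742), so the relation of Fam25c rests on those glands. R3hdml lost the threshold there, while its rho over all 14 glands passed (permutation adjusted p = 0.0166). Centred within slides, r was 0.89, 0.80, 0.78, 0.88 and 0.72 in that order, and Fam25c alone of these 5 missed the threshold (permutation adjusted p = 0.102). Within genotypes, r for Dmbt1 was 0.98 in KI and 0.86 in WT virgins, for Ido1 0.97 and 0.91, and for Ptn 0.79 and 0.81. Abcc8 passed by rank (rho = 0.73, permutation adjusted p = 0.0166) and not by Pearson's r (0.51, permutation adjusted p = 0.152). Sprr1a had r = 0.62 (permutation adjusted p = 0.0585; rho = 0.59, permutation adjusted p = 0.0678). Pon1, Acsm3 and Crym had r of -0.03, 0.14 and 0.39 (permutation adjusted p = 0.941, 0.664 and 0.247). The hormone-sensing luminal score, whose markers were lower at day 18, gave r of 0.87 for Dmbt1 (permutation adjusted p = 0.00805), 0.82 for Ido1 (permutation adjusted p = 0.0121), 0.87 for Ptn (permutation adjusted p = 0.0021) and 0.76 for R3hdml (permutation adjusted p = 0.0304). Without mice 198 and 376 these were 0.72, 0.78, 0.49 and 0.70, and Ptn lost its unadjusted call (permutation p = 0.110). Abcc8 passed with that score by rank (rho = 0.78, permutation adjusted p = 0.0119), with r = 0.55 (permutation adjusted p = 0.109). The other 5 members had r between 0.02 and 0.62 with it, and none passed. Centred within slides, Dmbt1, Ido1 and Ptn still passed with this score (r = 0.86, 0.78 and 0.84), and R3hdml missed the threshold (r = 0.73, permutation adjusted p = 0.0567). With the white adipocyte score, Pon1 had rho = 0.73 (permutation adjusted p = 0.0166) and r = 0.53 (permutation adjusted p = 0.0602), and 0.76 without mice 320 and 376, and Acsm3 r = 0.74 (permutation adjusted p = 0.0585), which was 0.18 without them; the other 8 had r between -0.24 and 0.47 with it, and none passed. With values centred within slides, Pon1 passed with the adipocyte score (r = 0.58, permutation adjusted p = 0.00995). Acsm3 (r = 0.80, permutation adjusted p = 0.118) and the other 8 did not. Whether correlations differ between members was not tested. How many of all genes follow these scores as closely was not computed, so the relations are not shown to be particular to the members.

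**Figure D4:**
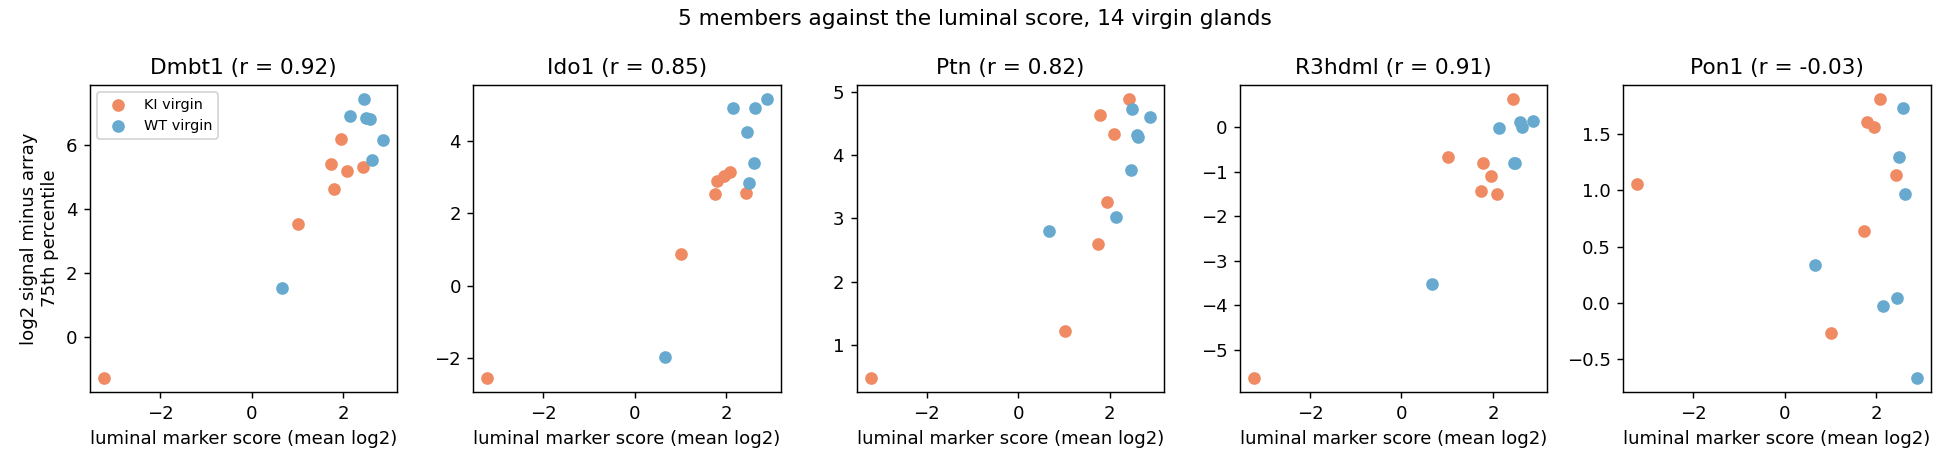
Log2 value (y axis) of Dmbt1, Ido1, Ptn, R3hdml and Pon1 against the luminal marker score (x axis, mean log2) in the 14 virgin glands, KI and WT in separate colours. Mouse 198, at -3.22, is the isolated point on the left; Dmbt1, Ido1 and Ptn also climb among the other glands, and Pon1 does not follow the score.

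The genes most like each member by Spearman's rho over the 14 virgins describe arrays that share their cell mix and scaling. They were Tox2 for Dmbt1 (0.93), Snorc for Ido1 (0.98), Nek8 for Ptn (0.95), Arap1 for Crym (0.83) and Tmprss2 for Fam25c (0.98). Dlg3 was nearest to Abcc8 (0.95, tied with an unnamed noncoding probe), and Mapk9 to Pon1 (0.88, next after another such probe). Slitrk1 was nearest to R3hdml (0.93), Pcp4 to Sprr1a (0.89) and BC006653 to Acsm3 (0.93). Of these, Tox2 and Snorc had stage differences of -4.25 and -4.97 in WT, and Tmprss2 and Arap1 of 0.03 and -0.05.

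Genes related to the members by family or pathway were read against the stage comparison. Of 94 listed, 65 were tested; in KI 16 were higher, 22 lower and 27 not called, and in WT 11 were higher, 23 lower and 31 not called (limma, adjusted p under 0.05), against 23.7% higher and 18.5% lower over all genes in KI and 21.5% and 19.3% in WT. Around Ido1, 2 of 9 tested kynurenine genes were higher and 3 lower in KI, and 2 higher and 2 lower in WT: Kmo, the next hydroxylase of the pathway, was lower (log2 -1.88 in KI and -1.99 in WT), as was Qprt (-1.57 and -1.44), while Kyat1 was higher (1.43 and 1.15). Ido2 was not tested. Around Ptn, 4 of 12 were higher and 4 lower in KI and 2 higher and 5 lower in WT. The receptor gene Alk was below background on all 5 WT arrays and on 4 of 5 KI arrays at day 18 (measured difference -3.19 in KI and -4.19 in WT, where dim values give no exact fold). The receptor gene Ltk was higher (2.98 in KI and 1.73 in WT). The syndecan gene Sdc3 was lower (-1.48 in KI and -1.68 in WT), the syndecan gene Sdc4 was higher (1.86 and 1.64), and the close relative Mdk was not called.

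Among scavenger and mucosal genes, 3 of 13 were higher and 4 lower in KI and 2 higher and 6 lower in WT: Sftpd, a surfactant collectin, was higher (measured difference 11.67 in KI, where 3 of 7 virgins were well above background so that the value is no exact fold, and 9.17 in WT, where 7 of 7 were), Muc1, a cell-surface mucin, was higher (5.55 and 5.82), and Ssc5d was lower (-2.11 and -2.30). For Pon1, its relative Pon3 was lower (-1.83 in KI and -1.78 in WT) and Pon2 was not called. For R3hdml, 3 of 6 CAP family genes were lower in each genotype and 1 was higher in KI, the lower ones being Pi16 (-3.23 in KI and -2.55 in WT), Crispld1 (-2.47 and -2.45) and Pi15. Pi15 was below background on all 10 day 18 arrays and had measured differences of -2.40 and -3.24. For Crym, 2 of 7 thyroid hormone genes were lower in each genotype, the transporter gene Slc16a10 (-2.24 in KI and -2.21 in WT) and the receptor gene Thra (-0.79 and -0.80).

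For Abcc8, 2 of 2 tested channel genes were lower in KI and 1 of 2 in WT: Abcc9, the other sulphonylurea receptor gene, was lower (-0.84 in KI and -0.95 in WT). For Acsm3, 3 of 4 tested relatives fell and 1 rose in each genotype: Acsm5 (-2.52 in KI and -1.80 in WT), Acss2 (-2.48 and -1.85) and Acss3 (-2.05 and -1.96) fell, and Acss1 rose (2.39 and 2.60). For Sprr1a, 10 of 22 genes listed for the cornified envelope and keratinocytes were tested, and most Sprr genes of the list were not; 0 were lower in either genotype, with 5 higher in KI, among them the basal keratin genes Krt5 and Krt14, and 4 in WT: Tgm1, a transglutaminase that cross-links the envelope, rose by 4.03 in KI and by 3.08 in WT, and Lor, loricrin, by 1.17 and 1.43. Direction depended on scaling for a few: relative to spike-in probes Ahr, Sprr2b and Tgm3 turned lower in WT, and Itgav and Sprr2b in KI. Called with spike-in scaling, 7 of 16 stayed higher in KI and 4 of 11 in WT, and all 22 and 23 stayed lower. None of the 65 was called between genotypes.

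**Figure D5:**
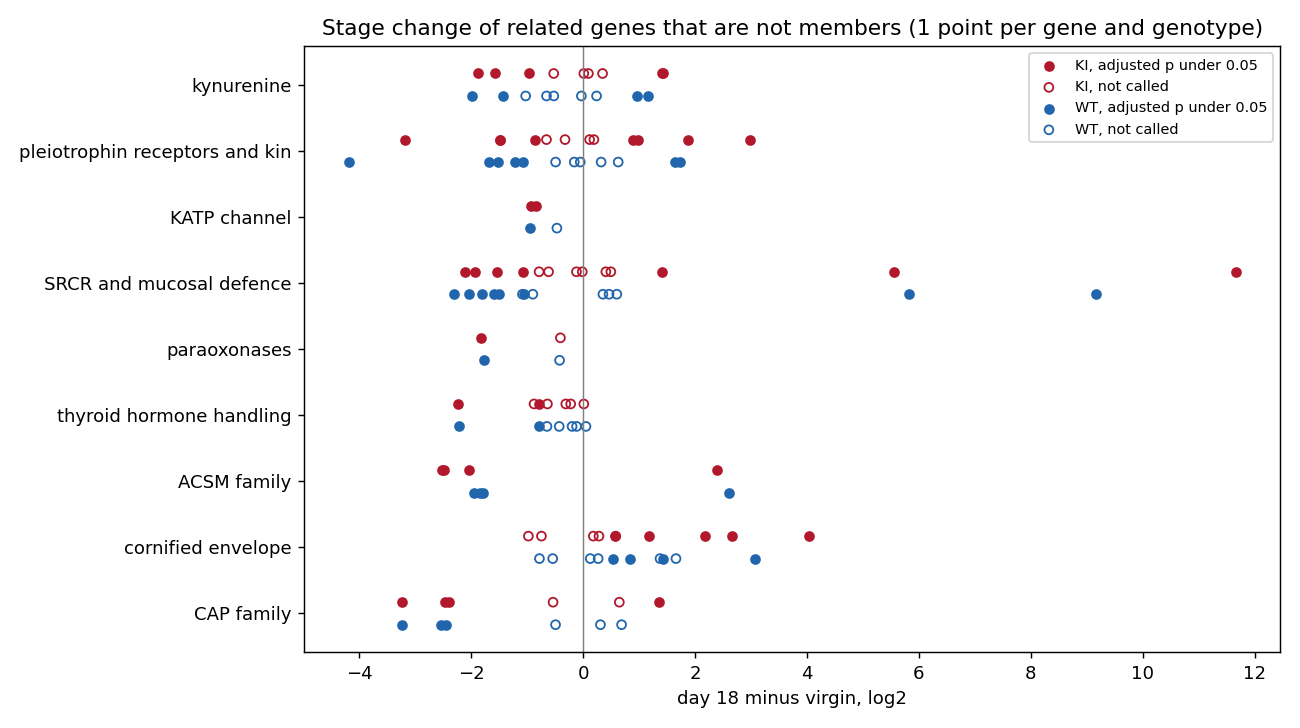
Log2 difference, day 18 minus virgin (x axis), of the 65 related genes that were tested, by list (y axis), with KI above WT; filled points passed an adjusted p under 0.05. Sftpd and Muc1 stand at the far right, and cornified envelope genes have no filled point left of 0.

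Acsm3 and Crym lie near each other on chromosome 7 (mm9 probes at 126928021 and 127330029). Of the 5 tested genes between them, Tmem159 was lower at day 18 (-1.35 in KI and -1.29 in WT), and Eri2, Rexo5, Dcun1d3 and Lyrm1 were not called in either genotype (limma, adjusted p from 0.226 to 0.367 in KI and 0.151 to 0.424 in WT). The 4 genes not called had differences between -0.57 and 0.27.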

How the data were processed

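Gene expression was measured on 24 arrays (3 slides) of 60-base probes, 1 mouse each. Per the submitters' processing notes, signals were extracted with Agilent Feature Extraction 12.0.3.2; the deposited files hold each spot's processed signal as intensity, background-subtracted by that software and not scaled between arrays. The series matrix deposited by the authors holds log10 of the same signal (largest difference 0.005) and was used as an alternative. Of 56605 probes, 35117 were kept, each detected by the software's background call in 80% or more of some group's arrays; log2 values had each array's 75th percentile subtracted, and the brightest probe stood for a gene. No spot was saturated, and the number of arrays limits the precision. Groups were fitted together with limma 3.58.1 in R 4.3.3 (Benjamini-Hochberg over 22389 genes, threshold 0.05). Where most day 18 arrays were not well above background, folds are lower bounds against the dimmest signal above background. Exact tests used all splits. Correlations used 100000 permutations in NumPy 2.4.6, with ranks from SciPy 1.17.1. The fit was checked on simulated data. The p-values measure the spread between these mice. Named genes are the members, up to 3 called genes per related list with the largest WT change plus any a sentence needed, and the genes ranked most like each member. The members, lists and tests were chosen with earlier results of these data known. The stage change of the members is described without a test, because it was used to choose them. Alternatives were background correction, normalization, scaling, filters, slide as a block, series matrix values, probe averaging, leaving out arrays and, added after seeing the data, slide-centred correlations.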

Additional observations from a re-analysis of the deposited data

Results flagged for a closer look

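Single glands stood far from the rest of their group, by the gap to the nearest value over the group's range, in 13 of the 40 member and group combinations. Chance flags about 1 in 20 for a combination read alone. Members share the same glands, so the 40 combinations are not independent, and all flags fell on mice 198, 317, 184, 376 and 232. The share flagged over all genes was not computed, so the count is not a result about the members. KI virgin 198 was low for Dmbt1 (-1.29, next 3.53), Ido1 (-2.58, next 0.89) and R3hdml (-5.64, next -1.50), and WT virgin 317 was low for Dmbt1 (1.52, next 5.52), Ido1 (-1.99, next 2.86), Abcc8 (-2.33, next -0.15) and R3hdml (-3.52, next -0.80). These are the virgin glands with the lowest luminal score in their genotype, -3.22 and 0.66, and the part of that in the values was not tested. KI mouse 184 at day 18 was high for Fam25c (-1.40, next -6.24), Ido1 (-3.67, next -5.96) and R3hdml (-2.80, next -6.36), and its brown adipocyte score, 1.69, was the highest of its group. KI virgin 376 was low for Acsm3 (-1.16, next 0.78) on the array with the high negative control signal. Its processed signal for Acsm3 before scaling, 1308, was near the highest of the KI virgins, 1324. WT mouse 232 at day 18 was low for Dmbt1 (-7.49, next -6.80) and R3hdml (-7.43, next -6.79), all values below background.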

How the results depend on the processing

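Of 500 member differences recomputed under 10 settings, 200 were stage differences, and 27 of those 200 moved by over 1 SD (18 under normexp, 9 under spike-in scaling). The SD rule was not applied to the genotype and genotype-by-stage differences, which make up the rest of the 500. No stage difference changed sign, while 24 of the 300 genotype and genotype-by-stage differences among them did, and 20 of 720 with 1 array left out; none of these was called, and their main values lay between -0.87 and 1.37. No member was called by genotype under any setting or with any of the 24 arrays left out. Adjusted p ranged between 0.212 and 1.00 for Sprr1a in virgins and between 0.135 and 1.00 for Acsm3 at day 18. With median scaling, 4617 genes were called between stages in KI and 4894 in WT, and the related genes came to 14 lower and 9 higher in KI and 14 lower and 7 higher in WT. With spike-in scaling, 14805 genes were called in WT (13661 lower, 1144 higher; median of all genes -0.90), and related genes came to 40 lower and 7 higher in KI and 45 lower and 4 higher in WT. Without mice 376, 198 and 184, 1 gene was called by genotype in virgins (Ston2) and 3 at day 18 (5430401H09Rik, LF194179 and Scgb2b20, all named after their values were seen). Correlated pairs of members were 1 without mice 376 and 198, 10 with normexp, 10 with spike-in scaling and 0 with slide-centred values, against 4. Leaving out 1 array gave 8020 to 12294 genes called in KI and 7932 to 12879 in WT, with 19 to 25 related genes lower and 15 to 18 higher in KI and 20 to 29 lower and 10 to 14 higher in WT; the highest of each came without mouse 376. The cause was not tested. No paired analysis was possible because every mouse has its own number and is in 1 group. Dim probes limit the day 18 values, which for most members are bounds.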
